A study of Mus musculus with 6 samples.

Results

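Complex II (succinate dehydrogenase) and complex III (cytochrome bc1 complex) pass electrons through the middle of the mitochondrial respiratory chain. Complex II oxidises succinate in the tricarboxylic acid cycle and hands the electrons to ubiquinone, a small lipid carrier of the inner membrane. Complex III takes them from reduced ubiquinone, gives them to cytochrome c and pumps protons as it does so. All subunits of complex II are encoded in the nucleus, whereas complex III holds a single subunit encoded by mitochondrial DNA.

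The expression of 10 genes of these complexes was followed in neural stem cells (NSCs). They were chosen by symbol among the 53110 genes of the deposited table, as 4 subunits of complex II (Sdha, Sdhb, Sdhc and Sdhd) and 6 of complex III (Uqcrc1, Uqcrc2, Uqcrfs1, Uqcrb, Uqcrq and Uqcrh). All 10 passed a filter at a mean of 10 normalized counts, which left 16266 genes to test. The study itself displayed these genes among mitochondrial genes of the same samples, so their direction here is not independent evidence.

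The NSCs were primary cells of the embryonic mouse telencephalic cortex, kept as adherent cultures with EGF and bFGF at 21% O2. There were 3 samples labelled WT and 3 labelled Setd5+/-, in which 1 allele of the chromatin regulator Setd5 had been mutated with CRISPR-Cas9. The mutant columns of the table carry the name of a single clone, A3. Medium, oxygen and the RNA-seq method were shared by both groups.

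The reads counted on genes ranged from 9995980 to 10004948 in the WT samples and from 7143309 to 7146147 in the Setd5+/- samples. The variance between samples of the same genotype was 1.92 to 1.96 times the counting variance of single reads. It was halved on the assumption that each fragment was counted as 2 reads, which the sources used here do not state. The chi-square of read pairs per degree of freedom was then 0.958 to 0.981 in the 6 comparisons, less than sampling noise would give. In the 9 comparisons between genotypes it was 31.7 to 31.9. Samples of the same genotype also shared an index and a lane. The 3 samples of a genotype were therefore counted as 1 sample, the parts of 1 library. The p-values compare the reads of 2 libraries and not the genotypes, and the 95% intervals cover counting error only. The genotype thus cannot be told apart from the clone, the library, the index or the lane.

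Setd5 was lower in the Setd5+/- library, at 1990 to 2151 normalized counts against 2498 to 2780 in WT. All 10 markers of neural stem cells had reads in both libraries, though Prom1 went from a mean of 24.6 to 2.38 normalized counts. The summed level of the 10 was 59879 to 60717 in Setd5+/- against 75700 to 75950 in WT. The fall of this sum rests on Fabp7, a radial glia fatty acid binding protein, which went from a mean of 36015 to 11490 normalized counts. Without it the other 9 markers summed to 48311 to 49334 in Setd5+/- against 39718 to 39874 in WT. This rise rests on Vim, from a mean of 9095 to 13822, and Notch1, from 2576 to 7859. By limma 6 of the 10 markers were lower and 3 higher, against 30.9% and 30.3% of all genes tested. Markers of neurons summed to 81.0 to 90.5 against 385 to 414, with 2 of 6 (none in WT) at 0 reads in the Setd5+/- library, and those of astrocytes to 1237 to 1397 against 788 to 808, with none of 4 at 0. The astrocyte list went both ways, with 3 markers higher and Aldh1l1 lower, from 380 to 147. The 4 oligodendrocyte markers summed to 237 to 250.2 against 187 to 207, with 2 at 0 in Setd5+/- only. The sums were at most 14.3 for the 5 mesenchymal markers, with 3 at 0 in Setd5+/- and 1 in WT, and at most 4.14 for the 3 endothelial markers, with 2 at 0 in Setd5+/-. For the 4 microglial markers they were 51.3 to 70.3 against 78.6 to 117, with 1 at 0 in Setd5+/- and 2 in WT. This sum rests on Csf1r alone, from a mean of 98.0 to 53.6. Aif1 (0.83 to 4.37) and Tmem119 (0 to 0.795) went the other way, and Cx3cr1 had no reads. The part of these markers in the values of the complexes was not tested. In bulk RNA, fewer cells of a type and less RNA per cell cannot be told apart.

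Most members were lower in the Setd5+/- library. At an adjusted p under 0.05 (limma with Benjamini-Hochberg adjustment over all genes tested), 8 of the 10 were lower, 1 was higher (Sdha) and 1 was not past the threshold (Uqcrb). Of all genes tested, 30.9% were lower and 30.3% higher by the same rule. The values of the 2 genotypes did not overlap for 9 of the 10 members, and for 65.3% of all genes tested. By size, 4 members were lower by a fold of at least 1.5 (Sdhc, Sdhd, Uqcrfs1 and Uqcrh) against 15.8% of all genes, and none was higher by that fold against 19.9% of all genes.

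The median log2 fold change was -0.62 over the 4 complex II members and -0.44 over the 6 complex III members, against -0.02 over all genes tested. The subunits encoded in the nucleus did not move by a common amount. Of the 45 pairs of members, 37 had a difference in log2 fold change whose 95% counting interval, not adjusted for the number of pairs, left out 0.

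**Figure D1:**
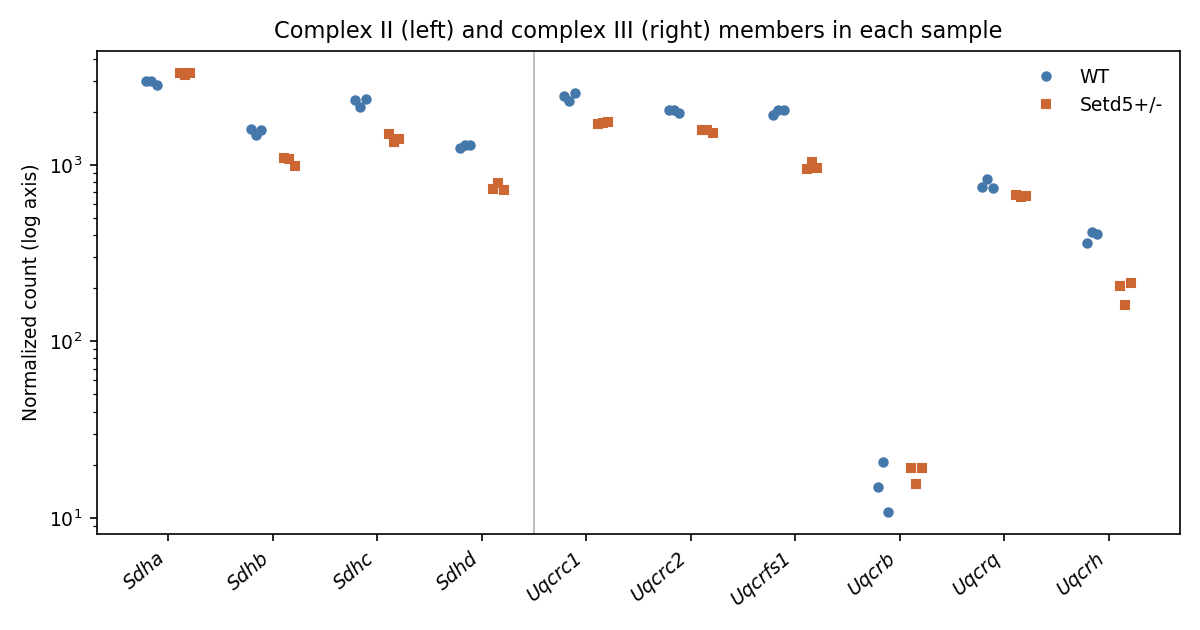
Normalized counts (log axis) of the 4 complex II members, left of the line, and the 6 complex III members, right of it, with 1 point per sample (circles WT, squares Setd5+/-). The genotypes are apart for every gene but Uqcrb, and Sdha alone among the separated genes is higher in Setd5+/-.

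Within complex II, Sdha went against the other 3 subunits. Sdha encodes the flavoprotein that holds FAD and oxidises succinate, and lies on chromosome 13 (ENSMUSG00000021577, chr13:74322254-74350280 in GRCm38, the build also called mm10). It had 2990, 2995 and 2820 normalized counts in WT and 3304, 3217 and 3325 in Setd5+/-. Every Setd5+/- value was above every WT value, by 11.8% on the means. On the log2 scale this was 0.16 (95% counting interval 0.10 to 0.22, limma adjusted p = 3.66e-05).

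Sdhb, the iron-sulfur protein that passes electrons from the flavoprotein to ubiquinone, lies on chromosome 4 (ENSMUSG00000009863, chr4:140961203-140979193). It had 1585, 1477 and 1580 normalized counts in WT and 1099, 1080 and 989 in Setd5+/-. The samples did not overlap and the mean was 31.8% lower, a log2 fold change of -0.55 (-0.64 to -0.46, limma adjusted p = 8.09e-11).

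Sdhc and Sdhd encode the membrane anchors that carry the haem and help to form the ubiquinone site. Sdhc (ENSMUSG00000058076, chr1:171127165-171150603) had 2326, 2112 and 2371 normalized counts in WT and 1493, 1346 and 1396 in Setd5+/-. Sdhd (ENSMUSG00000000171, chr9:50596357-50603812) had 1243, 1289 and 1296 in WT and 732, 793 and 724 in Setd5+/-. Neither gene overlapped between genotypes. Sdhc had a log2 fold change of -0.68 (-0.76 to -0.61, limma adjusted p = 1.91e-13) and Sdhd one of -0.77 (-0.87 to -0.66, limma adjusted p = 3.32e-13). Their fold changes differed from each other by 0.08, with an interval from -0.05 to 0.22 that includes 0.

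The difference in log2 fold change between Sdha and the other subunits of its complex was 0.71 against Sdhb (0.60 to 0.82), 0.85 against Sdhc (0.75 to 0.94) and 0.93 against Sdhd (0.81 to 1.05). Per kilobase of merged exon length, the level of Sdha was 711 normalized counts in WT, beside 691 for Sdhb, 698 for Sdhc and 1037 for Sdhd. In Setd5+/- these levels were 795, 472, 434 and 609. On this scale Sdha made up 22.7% of the complex II sum in WT and 34.4% in Setd5+/-, where it was the highest of the 4. Per kilobase of the principal mRNA, a length added after the data were seen, Sdha was also the highest in Setd5+/- (1132, beside 925, 445 and 609), but in WT (1012) it lay below Sdhb (1355) and Sdhd (1037) and above Sdhc (716).

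Sdhc is the only member on chromosome 1. The 1044 tested genes of that chromosome had a median log2 fold change of 0.53, against -0.04 for all other genes, and 5.46% of them were lower than Sdhc. Among the 20 tested genes nearest to Sdhc, within 281 kb, the median was 0.31, with 15 above 0 and 2 below Sdhc. Without Sdhc, the median of complex II was -0.55. The part of chromosome 1 in the value of Sdhc was not tested.

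In complex III the largest fall in a gene of the catalytic core was that of Uqcrfs1. It encodes the Rieske iron-sulfur protein, which takes the first electron from reduced ubiquinone, and lies on chromosome 13 (ENSMUSG00000038462, chr13:30540308-30545362). Its normalized counts were 1907, 2051 and 2051 in WT and 949, 1041 and 965 in Setd5+/-. The highest Setd5+/- value was well under the lowest WT value. Its log2 fold change was -1.02 (-1.12 to -0.93, limma adjusted p = 3.61e-17), at percentile 6.09 of all genes tested.

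The core proteins Uqcrc1 and Uqcrc2, which form the large matrix side of the complex, fell by less. Uqcrc1 (ENSMUSG00000025651, chr9:108936633-108949623) had 2466, 2304 and 2540 normalized counts in WT and 1706, 1715 and 1755 in Setd5+/-, a log2 fold change of -0.50 (-0.57 to -0.42, limma adjusted p = 4.54e-12). Uqcrc2 (ENSMUSG00000030884, chr7:120635176-120659524) had 2047, 2034 and 1968 in WT and 1567, 1565 and 1506 in Setd5+/-, a log2 fold change of -0.38 (-0.46 to -0.31, limma adjusted p = 8.02e-10). The samples of the genotypes did not overlap for either gene. Exons of Uqcrc2 share 504 bases with exons of Pdzd9 on the other strand, and since the use of strand in counting is not given in the sources used here, their reads can be mixed. Pdzd9 went from 262 to 179 normalized counts.

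Uqcrq and Uqcrh encode small supernumerary subunits, of which Uqcrh is the hinge protein that sits at cytochrome c1. Uqcrq (ENSMUSG00000044894, chr11:53427922-53430831) had 750, 827 and 735 normalized counts in WT and 677, 659 and 668 in Setd5+/-. The samples were apart, but by less than for any other subunit that fell. The log2 fold change was -0.20 (-0.33 to -0.08, limma adjusted p = 0.00419). It was -0.15 without the second WT sample, with a limma adjusted p of 0.0528.

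Uqcrh (ENSMUSG00000063882, chr4:116066965-116075071) had 360, 414 and 406 normalized counts in WT and 206, 160 and 213 in Setd5+/-. The samples did not overlap, and the log2 fold change was -1.03 (-1.24 to -0.82, limma adjusted p = 2.84e-09), which could not be told from that of Uqcrfs1 (difference 0.01, interval -0.22 to 0.23).

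Uqcrb encodes a small subunit that contacts the ubiquinone site, and lies on chromosome 13 (ENSMUSG00000021520, chr13:66900617-66905378). Its row held few reads, with 14.9, 20.7 and 10.8 normalized counts in WT and 19.1, 15.5 and 19.1 in Setd5+/-. These were the only values of a member that overlapped between genotypes. The log2 fold change was 0.24, with an interval from -0.55 to 1.02 that covers a fall and a rise (limma adjusted p = 0.595). Exons of Uqcrb also share 50 bases with exons of Gm10767 on the other strand, which went from 15.2 to 31.8 normalized counts.

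Set in order from the largest fall, the members were Uqcrh, Uqcrfs1, Sdhd, Sdhc, Sdhb, Uqcrc1, Uqcrc2, Uqcrq, Sdha and Uqcrb. Neighbours in this order whose intervals of difference included 0 were Uqcrh and Uqcrfs1, Sdhd and Sdhc, Sdhb and Uqcrc1, and Sdha and Uqcrb.

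**Figure D2:**
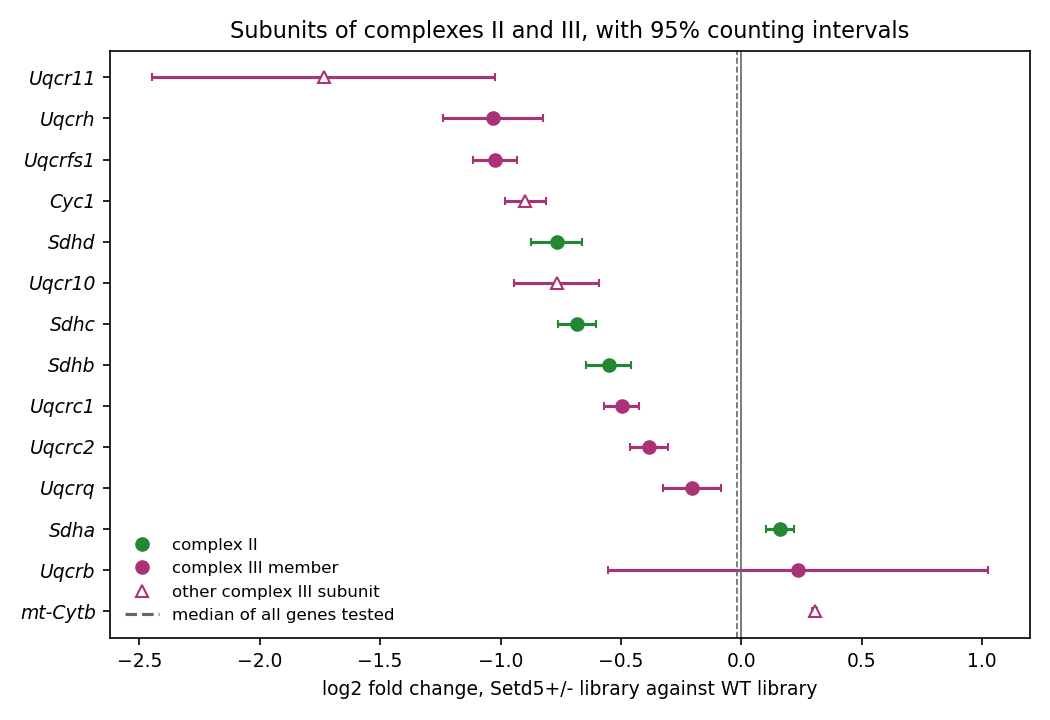
Log2 fold change of Setd5+/- against WT (horizontal axis) for each subunit, with bars for the 95% counting interval. Circles are the 10 members, open triangles the other 4 complex III subunits, and the dashed line the median of all genes tested (-0.02). Sdha and mt-Cytb lie above 0 with their whole interval.

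Of the other 4 subunits of complex III, 3 were lower and 1 was higher, against 30.9% and 30.3% of all genes tested. Cyc1 encodes cytochrome c1, which hands the electron to cytochrome c, and had 2133, 2144 and 2180 normalized counts in WT and 1200, 1138 and 1128 in Setd5+/-, with no overlap. Its log2 fold change was -0.90 (-0.98 to -0.81). The small subunit Uqcr10 went from a mean of 474 to 280 normalized counts, a log2 fold change of -0.77 (-0.94 to -0.59). Uqcr11, a further small subunit, went from 48.9 to 14.7, a log2 fold change of -1.74 (-2.45 to -1.02). These 3 were past the limma threshold.

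The subunit of complex III encoded by mitochondrial DNA, mt-Cytb (cytochrome b), was higher. Its normalized counts were 75169, 74961 and 75232 in WT and 93397, 92496 and 92449 in Setd5+/-, so every Setd5+/- value was above every WT value. Its log2 fold change of 0.30 (0.29 to 0.32) was past the limma threshold. Among the 3 subunits that carry redox centres, the transcripts of the Rieske protein and cytochrome c1 were lower and that of cytochrome b was higher.

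Processed pseudogenes are copies of a spliced mRNA inserted in the genome, and several that match small complex III subunits held reads. Annotated pseudogenes that matched an mRNA over at least 90% of their own length with at least 90% identity were found for 3 members, with 4 for Uqcrb, 2 for Uqcrh and 1 for Uqcrq. Uqcr10 had 1 and Uqcr11 had 2. None was found for Sdha, Sdhb, Sdhc, Sdhd, Uqcrc1, Uqcrc2, Uqcrfs1 or Cyc1.

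The start of the Uqcrb coding sequence is shown with the pseudogenes that match it, because reads from such stretches can be placed on either row. The 90 bases run from the start codon, as annotated in GENCODE M21 on GRCm38. In the Uqcrb gene they are split over 2 exons, 19 bases at chr13:66905293-66905311 and 71 bases at chr13:66902731-66902801 on the minus strand, whereas each pseudogene holds them in 1 piece. Capitals mark bases that differ from Uqcrb.
Uqcrb: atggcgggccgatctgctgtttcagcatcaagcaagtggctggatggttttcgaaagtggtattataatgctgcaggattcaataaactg
Gm2962: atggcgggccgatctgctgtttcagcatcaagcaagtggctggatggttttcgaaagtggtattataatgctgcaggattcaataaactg
Gm16089: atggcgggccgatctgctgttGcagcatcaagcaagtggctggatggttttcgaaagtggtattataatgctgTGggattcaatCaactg
Gm19326: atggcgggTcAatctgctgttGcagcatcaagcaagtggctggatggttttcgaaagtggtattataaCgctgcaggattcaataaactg
Gm5457: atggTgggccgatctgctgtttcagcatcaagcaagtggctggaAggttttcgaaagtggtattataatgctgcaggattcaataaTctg

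Gm2962 (chr1:170925555-170925644, minus strand) had no difference from Uqcrb in this stretch. Gm16089 (chr5:137615627-137615716, plus strand) had 4, T22G, C74T, A75G and A85C, counted from the first base of the start codon with the Uqcrb base first. Gm5457 (chr14:12867553-12867642, plus strand) had 3 and Gm19326 (chr10:75767161-75767250, plus strand) had 4.

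Uqcrh is shown in the same way with Uqcrh-ps2 (chr2:119008209-119008298, plus strand), which held more reads than the gene itself. In the gene the stretch is split over 3 coding exons of 54, 21 and 15 bases, and the pseudogene differs from it at 5 positions.
Uqcrh: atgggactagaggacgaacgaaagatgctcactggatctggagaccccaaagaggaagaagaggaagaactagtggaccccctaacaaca
Uqcrh-ps2: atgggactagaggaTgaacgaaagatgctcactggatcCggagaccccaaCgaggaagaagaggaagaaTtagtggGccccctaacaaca

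The Uqcrb row held 3.54% of the normalized counts of Uqcrb and its pseudogenes together in WT, and 7.28% in Setd5+/-. Gm2962 had 305, 318 and 313 normalized counts in WT and 172, 156 and 198 in Setd5+/-, with no overlap. Its log2 fold change was -0.84 (-1.06 to -0.62, limma adjusted p = 1.02e-07). Gm16089 had 96.2, 94.3 and 126 in WT and 71.5, 40.5 and 38.1 in Setd5+/-, a log2 fold change of -1.11 (-1.51 to -0.70, limma adjusted p = 6.73e-05). Both were thus lower where the Uqcrb row was not. Gm5457 and Gm19326 had under 3 normalized counts on average in each genotype.

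Summed over Uqcrb and its pseudogenes, the normalized counts were 421, 434 and 453 in WT and 265, 217 and 255 in Setd5+/-, with no overlap. The log2 fold change of this sum was -0.83 (-1.02 to -0.65, limma adjusted p = 7.01e-09), against 0.24 on the gene's own row. Which of the genes the reads came from cannot be told from the table. Gm2962 lies on chromosome 1, in an intron of Fcrla, which had no reads in either library.

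Uqcrh held 34.2% of the sum with its pseudogenes in WT and 32.5% in Setd5+/-. Uqcrh-ps2 had 733, 732 and 741 normalized counts in WT and 428, 386 and 354 in Setd5+/-, a log2 fold change of -0.92 (-1.07 to -0.77, limma adjusted p = 9.38e-12). The sum fell by 0.95 on the log2 scale, close to the fall of the gene's own row. For Uqcrq the own row held 87.9% and 87.4%, and the sum with Gm15393 had a log2 fold change of -0.20 (-0.31 to -0.08).

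Uqcr11 resembled Uqcrb in that its own row held 7.70% of the sum in WT and 5.03% in Setd5+/-. Gm16418, its pseudogene on chromosome 1, had 543, 647 and 560 normalized counts in WT and 268, 255 and 310 in Setd5+/-, a log2 fold change of -1.07 (-1.24 to -0.90, limma adjusted p = 2.38e-11). For Uqcr10 the own row held 63.1% and 65.7%. The sums with pseudogenes had log2 fold changes of -1.12 for Uqcr11 and -0.82 for Uqcr10. Gm6293, the pseudogene of Uqcr10, shares 153 exon bases with 4930481A15Rik on the other strand, so their reads can be mixed. Gm6293 went from a mean of 277 to 146 normalized counts, and 4930481A15Rik from 253 to 132.

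**Figure D3:**
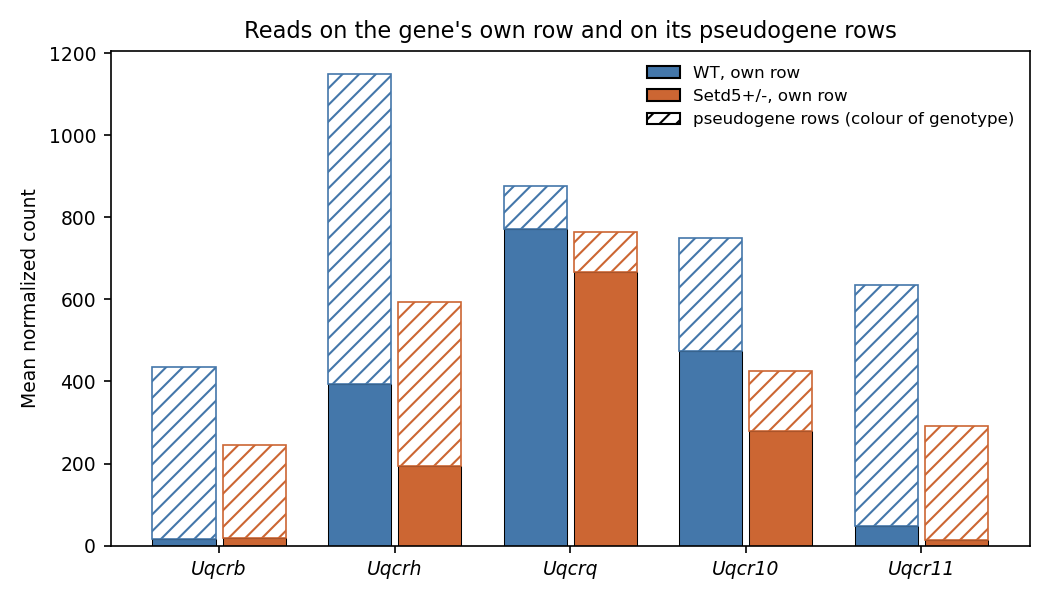
Mean normalized counts (vertical axis, from 0) on the gene's own row (filled) and on the rows of its pseudogenes (hatched), stacked, for WT (left bar) and Setd5+/- (right bar). The smallest filled share is that of Uqcrb in WT (3.54%) and that of Uqcr11 in Setd5+/- (5.03%), and every whole bar is lower in Setd5+/-.

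Compared per kilobase of merged exon length, Uqcrfs1 was the highest complex III member in WT, at 1470 normalized counts, followed by Uqcrc2 (790), Uqcrc1 (589), Uqcrq (421), Uqcrh (318) and Uqcrb (17.6). In Setd5+/- Uqcrfs1 was at 723, Uqcrc2 at 606 and Uqcrc1 at 417. This order depends on the length used, since the merged exons of Uqcrc1 span 4135 bases and its principal mRNA 1653. Per kilobase of the mRNA, Uqcrc1 (1474) and Uqcrfs1 (1470) were nearly level in WT, and in Setd5+/- Uqcrc1 (1044) and Uqcrc2 (815) were both above Uqcrfs1 (723). By merged length Uqcrfs1 made up 40.8% of the sum of the 6 members in WT and 31.6% in Setd5+/-. The levels of Uqcrb, Uqcrh and Uqcrq per length leave out the reads on pseudogenes.

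The promoters of 6 members were at hand in RefSeq (GRCm38.p6, 250 bases before to 50 after the start), those of Sdha, Sdhb, Sdhd, Uqcrc1, Uqcrfs1 and Uqcrh. NRF1 and the ETS factor GABPA are known regulators of nuclear genes of the respiratory chain. GCATGCGC, the core of the NRF1 motif, was found on either strand in Sdhb and Uqcrc1, and in 3.05% of 27025 genes with a promoter. CCGGAAG, the core of the ETS motif, was found in Sdhb, Sdhd and Uqcrh, and in 9.93% of genes. Sdha and Uqcrfs1 held neither. The lengths of the motifs were chosen after matches had been seen, and a match is not a bound site.

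The matches that lie before the RefSeq start are shown with the motif in capitals, in the direction of the gene. In Sdhb (chr4:140961177-140961230, plus strand) the NRF1 motif starts 54 bases before the RefSeq start, which places it just inside the gene as GENCODE annotates it. In Sdhd (chr9:50603883-50603935, minus strand) and Uqcrh (chr4:116075071-116075120, minus strand) the ETS motif lies on the other strand, starting 46 and 10 bases before it.
Sdhb: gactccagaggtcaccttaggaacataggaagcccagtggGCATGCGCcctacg
Sdhd: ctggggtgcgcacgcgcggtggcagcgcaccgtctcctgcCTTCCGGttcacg
Uqcrh: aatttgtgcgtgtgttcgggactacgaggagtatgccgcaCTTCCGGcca

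Genes that build or serve the complexes were looked at next, and their counts are to be read against the 30.9% of all genes tested that were lower and the 30.3% that were higher. Of the 4 assembly factors of complex II, 2 were lower, 1 was higher and 1 was not past the limma threshold, with a median log2 fold change of -0.33. The largest fall was in Sdhaf1, which helps to insert the iron-sulfur clusters of Sdhb, from a mean of 281 to 141 normalized counts (log2 fold change -0.99, -1.23 to -0.74). The largest rise was in Sdhaf4, a chaperone of the flavoprotein Sdha encoded on chromosome 1, from 149.9 to 190.2 (0.33, 0.09 to 0.58).

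Of the 6 assembly factors of complex III, 1 was lower, 1 was higher and 4 did not pass, both shares below those of all genes (30.9% lower and 30.3% higher), with a median of 0.01. Uqcc2, needed for the synthesis of cytochrome b, went from 125 to 84.2 normalized counts (log2 fold change -0.56, -0.89 to -0.24). Ttc19, which acts on the newly inserted Rieske protein, went from 337 to 401 (0.25, 0.08 to 0.42).

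Of the 13 genes of ubiquinone synthesis and handling, 4 were lower, 4 were higher and 5 did not pass, shares close to those of all genes (30.9% and 30.3%), with a median log2 fold change of -0.11. Pdss1, a subunit of the enzyme that makes the isoprenoid tail, had the largest fall, from 194 to 85.4 normalized counts (-1.17, -1.48 to -0.86). Coq8b, an atypical kinase of the pathway, had the largest rise, from 200.2 to 284 (0.50, 0.29 to 0.71).

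Other genes that pass electrons to ubiquinone, directly or through the electron-transferring flavoprotein, were lower in 4 of the 7 tested and higher in none. The shares of all genes were 30.9% and 30.3%, and the median of the list was -0.29. Etfb, of the electron-transferring flavoprotein of fatty acid oxidation, fell the most, from 855 to 452 normalized counts (log2 fold change -0.92, -1.05 to -0.78). Sqor, the sulfide oxidising enzyme, had the highest value, 0.37, with an interval from -0.04 to 0.78 and a limma adjusted p of 0.117. Chdh was below the filter.

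All 4 genes of the enzymes next to succinate dehydrogenase in the tricarboxylic acid cycle were lower, against 30.9% of all genes, with a median of -0.66. Suclg2, a subunit of succinyl-CoA ligase, which makes succinate, went from 171 to 83.4 normalized counts (log2 fold change -1.04, -1.35 to -0.72). Fh1, fumarate hydratase, which uses the product of complex II, changed least, from 1155 to 936 (-0.30, -0.41 to -0.20), and is encoded on chromosome 1.

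Cytochrome c, which takes the electrons of complex III, is encoded by Cycs in somatic cells. Its row held 34.0, 27.3 and 23.2 normalized counts in WT and 9.54, 0 and 11.9 in Setd5+/-, a log2 fold change of -2.49 with limma (-3.49 to -1.48, adjusted p = 0.00109). The samples did not overlap, but the row is low, and Cycs is known to have many pseudogenes whose reads were not added here. The testis form Cyct had no reads in any sample.

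For the other complexes of the chain, counts are given for comparison and no difference between complexes was tested. These lists hold only subunits encoded in the nucleus, and subunits of these complexes encoded by mitochondrial DNA were not counted. Of 36 complex I subunits, 25 were lower and 3 higher (median log2 fold change -0.47). Of 11 complex IV subunits 10 were lower (median -0.66), and of 15 complex V subunits 11 were lower (median -0.63). None of those listed was higher in either. Of all genes tested, 30.9% were lower and 30.3% higher.

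**Figure D4:**
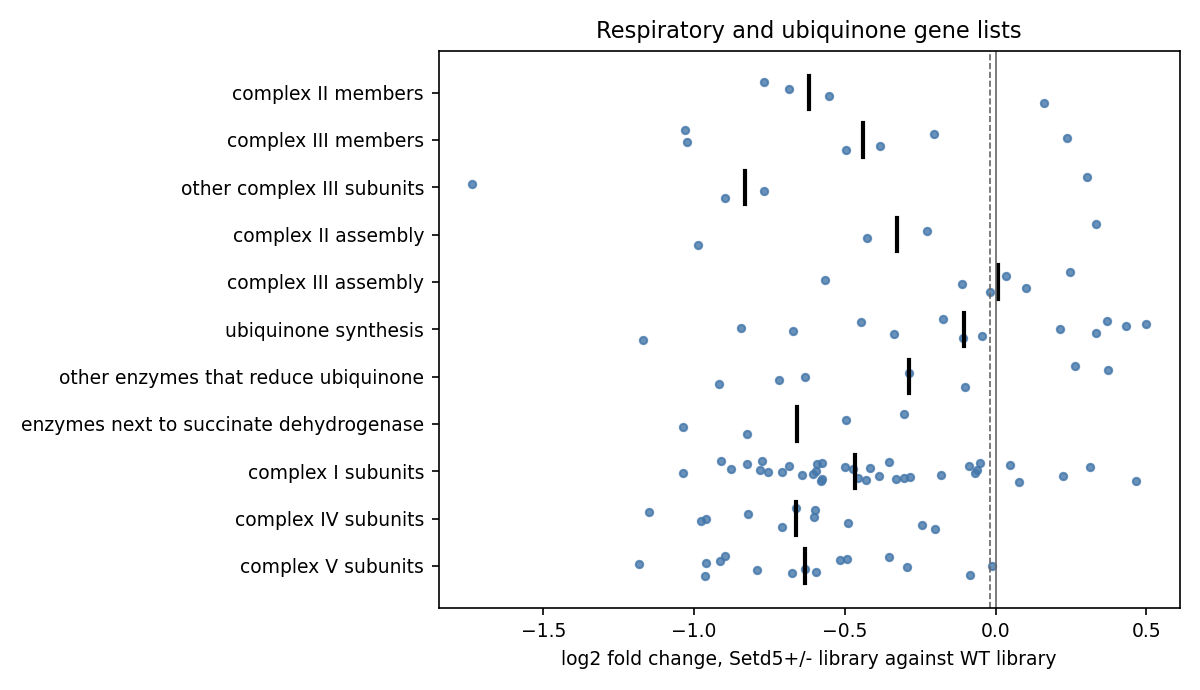
Log2 fold change of Setd5+/- against WT (horizontal axis) for each gene tested in a list (points), with the median of the list (black bar) and of all genes tested (dashed line). The medians lie at -0.62 for complex II, -0.44 for the complex III members and 0.01 for the complex III assembly factors. With pseudogene rows summed, which is not drawn, the median of the complex III members was -0.66.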

How the data were processed

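Per the labels and the methods of the study, RNA of 3 WT and 3 Setd5+/- NSC samples was made into libraries with a TruSeq kit and sequenced from both ends. The submitters' notes name Trimmomatic, Bowtie2, DESeq2 and mm10. The program that counted reads and its use of strand are not given in the sources used here. The authors deposited normalized counts, the reads on a gene divided by the size factor of the sample, beside their own fold changes and p-values, which were not used. Many deposited values had lost their decimal point. The points were placed so that each value was a whole number of reads (1 read was worth 0.827 to 0.829 normalized counts in WT and 1.19 in Setd5+/-). Of the 52438 genes with values, 39550 had a single placement, 12850 were settled by the deposited mean and 38 by the number of decimals. Only 26797 genes had a value above 0, and genes at 0 throughout, with no point to place, count among the single placements. In the 39550 genes whose deposited mean was not used, its digits equalled those of the mean of the restored values. For genes at 0 throughout this was fixed in advance.

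The columns as deposited are not counts, and whole reads were restored only here, so the main fit used no count model. Instead, limma 3.58.1 in R 4.3.3 (lmFit, eBayes with trend) was run on log2(normalized count + 1) of genes with a mean of at least 10, adjusted by Benjamini-Hochberg at a threshold of 0.05, and was tested on simulated data. A fold change on this scale understates the change of low genes. The simulated data held counting noise and no variation between libraries, so they cannot show whether the calls hold for the genotypes. Intervals (95%) come from reads summed per genotype, with a variance of 1.94 per read as measured within genotypes. The alternative with reads summed per genotype used the restored read totals, so its adjusted p-values cover counting error only. Positions, exon lengths and pseudogenes are from GENCODE M21 (GRCm38), and pseudogenes were matched with blastn 2.17.0 over at least 100 bases. The members, lists and alternatives were chosen with earlier results of these data known. All members, the other complex III subunits and the largest fall and rise of each further list are named. Other genes (Pdzd9, Gm10767, Fcrla, 4930481A15Rik) were named for their position. Fabp7, Vim, Notch1, Prom1, Aldh1l1 and the microglial markers were named for their part in a marker list. Pseudogenes were named one by one after their values were seen. Summing pseudogene rows, and levels per length of the principal mRNA, were added after the data were seen.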

Additional observations from a re-analysis of the deposited data

How the results depend on the processing

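Other scalings (upper quartile, TMM, median ratio without chromosome 1), pseudocounts of 0.5 and 5, filters on low values (none, or a mean of 50), reads summed per genotype and an adjusted p under 0.01 kept the direction of every member and its side of the threshold, except that Uqcrb was not tested with the filter at 50. Requiring a fold of 1.5 beside the adjusted p left 4 members lower and 0 higher, and 2393 genes lower and 2959 higher among all genes. With the rows of pseudogenes summed, the median of the complex III members moved to -0.66, 9 members were lower, and Uqcrb reversed to -0.83. Without the member on chromosome 1 the median of complex II was -0.55. The cause was not tested beyond what these settings leave out or add. Leaving out each sample in turn gave 7 to 8 members lower and 1 higher, medians of -0.66 to -0.59 for complex II and -0.46 to -0.43 for complex III, and 4469 to 4874 genes lower and 4670 to 4722 higher among all genes. The call lost was that of Uqcrq without the second WT sample (limma adjusted p = 0.0528). The replicate numbers did not pair the samples (correlations of deviations -0.0071 to 0.0049), and a fit with the replicate number as a block left 8 members lower and 1 higher, with 5012 genes lower and 4934 higher. The edgeR alternative was not run, since the deposited columns are not counts, though whole reads could be restored from them. With 1 library per genotype, depth limits only the counting error, which is widest for Uqcrb (56 reads in WT and 45 in Setd5+/-).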
